A study of Caenorhabditis elegans with 6 samples.

Results

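Superoxide dismutases, catalases, the peroxiredoxin PRDX-2 and the glutathione S-transferase GST-4 were followed in embryos of the nematode Caenorhabditis elegans. The 10 genes, listed by their sequence names, are sod-1 (C15F1.7), sod-2 (F10D11.1), sod-3 (C08A9.1), sod-4 (F55H2.1), sod-5 (ZK430.3), ctl-1 (Y54G11A.6), ctl-2 (Y54G11A.5), ctl-3 (Y54G11A.13), prdx-2 (F09E5.15) and gst-4 (K08F4.7). All 10 were found among the 46659 rows of the count table, and all 10 were among the 17365 genes with enough reads to be tested. RNA was sequenced from embryos of dot-1.1(knu339); ced-3(n1286) double mutants and of ced-3(n1286) single mutants, with 3 biological replicates of each genotype. The ced-3(n1286) allele is thus present in every library, and no library comes from animals with wild-type ced-3. Animals of both genotypes were grown at 20 °C on OP50 bacteria, and their eggs were freed from adults with alkaline hypochlorite. DOT-1.1 is related to the mammalian histone methyltransferase DOT1L, and CED-3 is the caspase of programmed cell death.

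Superoxide dismutases turn superoxide, a by-product of respiration, into hydrogen peroxide. Catalases and peroxiredoxins then break down hydrogen peroxide, and glutathione S-transferases couple glutathione to reactive compounds. In C. elegans, sod-3 is widely used as a reporter of the insulin-regulated transcription factor DAF-16, and gst-4 as a reporter of the oxidative stress factor SKN-1. SKN-1 is also a maternal factor that sets cell fates in the early embryo.

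Library totals ran from 66316445 to 77957224 counts. As a check of the labels, dot-1.1 (Y39G10AR.18) had 4516, 2716 and 3349 counts in single mutant replicates 1, 2 and 3 and 3980, 2144 and 2813 counts in the libraries labelled double mutant. Scaled to library size with TMM factors (CPM), these were 67, 34.9 and 46 CPM against 62.7, 28.6 and 36.2 CPM, lower in the double mutant within each replicate number but not called in edgeR, either with genotype alone (-0.21 ± 0.327 SE on the log2 scale, adjusted p = 0.806) or with the replicate number as a block (-0.24 ± 0.093 SE, adjusted p = 0.163). No source used here says what knu339 does to the transcript, and every direction given here therefore relies on the labels. All 10 markers of early embryos were present in the libraries, with summed levels of 516 to 815 CPM in the single mutants and 420 to 781 CPM in the double mutants. None of the 10 lay above 0 by log2 fold change (median -0.34), where 47.9% of all tested genes did. Their sum went from 731 to 465, from 815 to 781 and from 516 to 420 CPM within replicates 1, 2 and 3. Of the 10 only nos-2 was called, with the block (lower, adjusted p = 0.0386, edgeR), in a fit that called 4.01% of all tested genes. The part of this marker difference in the levels of the members was not tested.

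None of the 10 genes differed between the genotypes at an adjusted p under 0.05 in edgeR's quasi-likelihood test, with 1 of them, sod-4, at an unadjusted p under 0.05. Of all tested genes, 0.0806% were called in the same fit, 14 genes in all, so the members' count of 0 is read against a fit with very few calls. Between libraries of the same replicate number, deviations from the genotype mean correlated at only 0.169 to 0.32. A second fit had the replicate number as a block. It called 4.01% of all genes and again none of the 10, of which sod-4, ctl-3 and prdx-2 had an unadjusted p under 0.05. DESeq2 without the block called none of the 10 as well, and 2.81% of all genes. The median log2 fold change of the 10 genes was 0.08, beside -0.02 for all tested genes, and 5 of the 10 lay above 0, where 47.9% of all tested genes did. For none of the 10 genes did the levels of the genotypes separate completely, as they did for 18.5% of all tested genes. In bulk RNA of this kind, fewer cells of a type and less RNA per cell cannot be told apart.

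**Figure D1:**
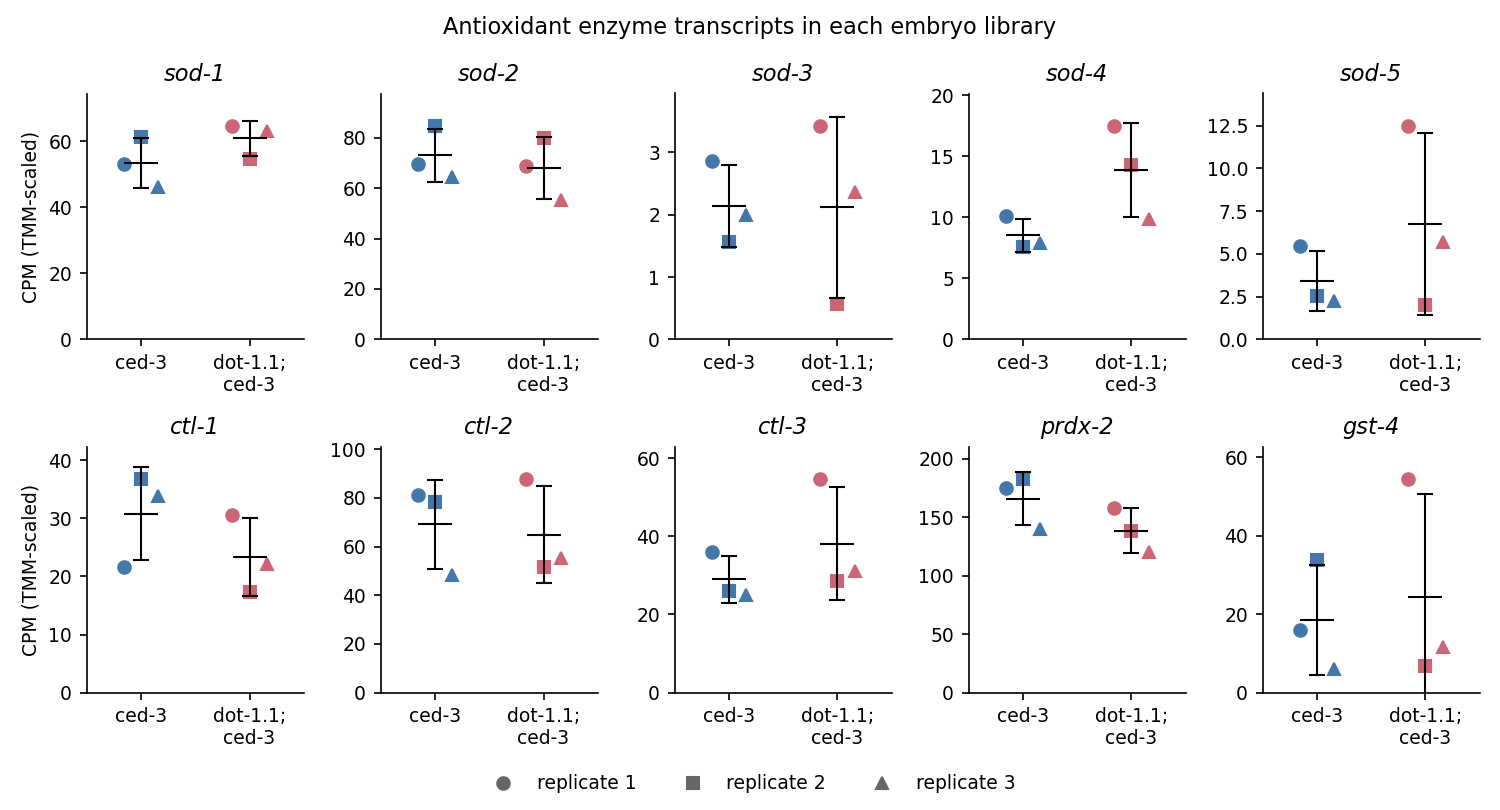
Level of each gene in CPM (linear axes from 0, a separate scale for each gene) in the 3 ced-3 and the 3 dot-1.1; ced-3 libraries; the marker shape gives the replicate number, the black line the mean and the bars the SD, which are cut off at 0 for gst-4. The genotypes overlap for all 10 genes, and for gst-4 the 6 libraries range from 6.03 to 54.5 CPM.

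Within each genotype the genes kept a similar order when levels were expressed per kilobase of merged exons. In the single mutants prdx-2 stood first at 220 ± 30.5 CPM per kilobase (SD, n = 3), followed by sod-2 at 91.0 ± 13.1 and sod-1 at 74.2 ± 10.5 CPM per kilobase. The catalase ctl-2 came next with 43.0 ± 11.3, then gst-4 with 25.4 ± 19.3, ctl-1 with 19.8 ± 5.15 and ctl-3 with 17.8 ± 3.72 CPM per kilobase. The lowest levels per kilobase were those of sod-4 at 6.50 ± 1.04, sod-5 at 4.83 ± 2.52 and sod-3 at 2.43 ± 0.749. Among neighbours in this order the libraries of prdx-2 and sod-2, of sod-1 and ctl-2, and of ctl-3 and sod-4 did not overlap, while all other neighbours did. In the double mutants the order differed only in that ctl-3, at 23.4 ± 8.86, stood above ctl-1, at 15.0 ± 4.29 CPM per kilobase, and the libraries of these neighbours overlapped. There only prdx-2 and sod-2, and sod-1 and ctl-2, were separated from their next neighbour.

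The gene sod-1 (chromosome II, 6972706 to 6973887, WBcel235) encodes the main copper/zinc superoxide dismutase of the cytosol. Its level was 53.1, 61.1 and 46.0 CPM in single mutant replicates 1, 2 and 3, the order used throughout, and 64.7, 54.7 and 63.0 CPM in double mutant libraries. The double mutant of replicate 2 lay below the single mutant of the same number, and the groups overlapped. The log2 fold change was 0.19 ± 0.141 SE (adjusted p = 0.598, edgeR).

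The mitochondrial manganese superoxide dismutases are encoded by sod-2 and sod-3. For sod-2 (chromosome I, 8434550 to 8435807) the levels were 69.5, 84.8 and 64.6 CPM in the single mutants and 68.8, 79.7 and 55.3 CPM in the double mutants. In both genotypes replicate 2 was highest and replicate 3 lowest, and the log2 fold change was -0.10 ± 0.165 SE (adjusted p = 0.812, edgeR). The inducible gene sod-3 (chromosome X, 17092753 to 17094306) was far less abundant, with 193, 122 and 145 counts, or 2.86, 1.57 and 1.99 CPM, in the single mutants. In the double mutants it had 218, 42 and 183 counts, or 3.43, 0.561 and 2.36 CPM. Its lowest library, double mutant replicate 2, was 6.12-fold below the highest, double mutant replicate 1. The fitted change was -0.02 ± 0.566 SE on the log2 scale (adjusted p = 0.995, edgeR), and without double mutant replicate 2 it was 0.47 ± 0.35 SE (adjusted p = 0.545, edgeR).

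The gene sod-4 (chromosome III, 9496884 to 9500375) encodes the extracellular copper/zinc superoxide dismutase and came closest to a call. It stood at 10.1, 7.57 and 7.86 CPM in the single mutants and at 17.5, 14.3 and 9.86 CPM in the double mutants. Double mutant replicate 3 lay just under single mutant replicate 1, so the groups overlapped, although the double mutant was higher within each replicate number. The mean was 8.49 ± 1.36 CPM against 13.9 ± 3.84 CPM (SD, n = 3 each), a fitted ratio of 1.63 (log2 fold change 0.71 ± 0.238 SE, adjusted p = 0.317, edgeR). With the block the adjusted p was 0.0545 at a log2 fold change of 0.68 ± 0.158 SE, which does not pass. DESeq2 with the block, an alternative chosen after the data were seen, called sod-4 (adjusted p = 0.00402) as its only call among the 10 genes, in a fit that called 13% of all genes. Exons of sod-4 overlap those of ctr-9 on the other strand over 175 bases, or 13.4% of its exon length. The level of ctr-9 was 216 ± 13.3 CPM in single mutants and 199 ± 15.3 CPM in double mutants (SD, n = 3 each), far above that of sod-4. No source used here says whether counting used the strand, and the part of this overlap in the counts of sod-4 was not tested.

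The minor cytosolic copper/zinc superoxide dismutase gene sod-5 (chromosome II, 4417633 to 4419130), known for its high expression in the dauer larva, had 5.46, 2.54 and 2.24 CPM in the single mutants. In the double mutants it had 12.5, 2.00 and 5.71 CPM. Replicate 1 was the highest of both genotypes, and double mutant replicate 2 was the lowest of all 6 libraries. The fitted change was 1.97-fold (log2 fold change 0.98 ± 0.638 SE, adjusted p = 0.552, edgeR). The superoxide dismutases together summed to 179 ± 22.9 CPM per kilobase in the single and 192 ± 18.0 CPM per kilobase in the double mutants (SD, n = 3 each; p = 0.5, exact two-sided permutation test).

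The catalase genes ctl-2, ctl-1 and ctl-3 lie in this order in a tandem cluster of 11.2 kb on chromosome II (14299556 to 14310779), all on the minus strand and separated by gaps of 1540 and 1537 bp. They are duplicates of each other, and no source used here says how reads common to them were counted, so the split between them is uncertain. The peroxisomal catalase gene ctl-2 was at 81.3, 78.2 and 48.2 CPM in the single mutants and at 87.8, 51.6 and 55.2 CPM in the double mutants. The groups overlapped widely, and the log2 fold change was -0.09 ± 0.257 SE (adjusted p = 0.898, edgeR). The cytosolic catalase gene ctl-1 was at 21.7, 36.8 and 33.9 CPM in the single and at 30.6, 17.4 and 22.1 CPM in the double mutants. Here single mutant replicate 1 was low and double mutant replicate 1 high, and the log2 fold change was -0.40 ± 0.255 SE (adjusted p = 0.542, edgeR). The levels of ctl-3 were 36.0, 26.0 and 25.0 CPM in the single mutants and 54.7, 28.5 and 31.1 CPM in the double mutants. For ctl-3 the double mutant was higher within each replicate number, although the groups overlapped, and the log2 fold change was 0.39 ± 0.264 SE (adjusted p = 0.558, edgeR).

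Shares within a family do not depend on the scaling of a library. Of the summed catalase level per kilobase, ctl-3 made up 25.5%, 18.1% and 22.8% in single mutant libraries and 31.1%, 28.8% and 28.2% in double mutant libraries. All double mutants thus lay above all single mutants, at 29.4 ± 1.56% against 22.1 ± 3.74% (SD, n = 3 each). The share of ctl-1 was 25.2 ± 8.33% in the single and 19.3 ± 1.58% in the double mutants and overlapped between them. The ratio of ctl-3 to ctl-1 counts was 1.79, 1.64 and 1.40 in the double mutants, and 1.66, 0.708 and 0.735 in the single mutants, where replicate 1 lay among the double mutants. Among the superoxide dismutases, the share of sod-4 was 4.30%, 2.87% and 3.86% in single mutant libraries and 6.37%, 5.77% and 4.32% in double mutant ones, again without overlap, although the last of these lay only just above the single mutants. For ctl-3 and sod-4 the exact two-sided permutation test gave p = 0.1, the smallest value that 3 against 3 libraries allow, so neither share could have passed at 0.05. In all, 8 shares were compared, and the other 6 overlapped between the genotypes. Shares of the same family depend on each other. By level, the groups did not overlap for 18.5% of all tested genes. The catalases together were at 80.6 ± 11.7 CPM per kilobase in the single and 78.7 ± 25.4 in the double mutants.

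**Figure D2:**
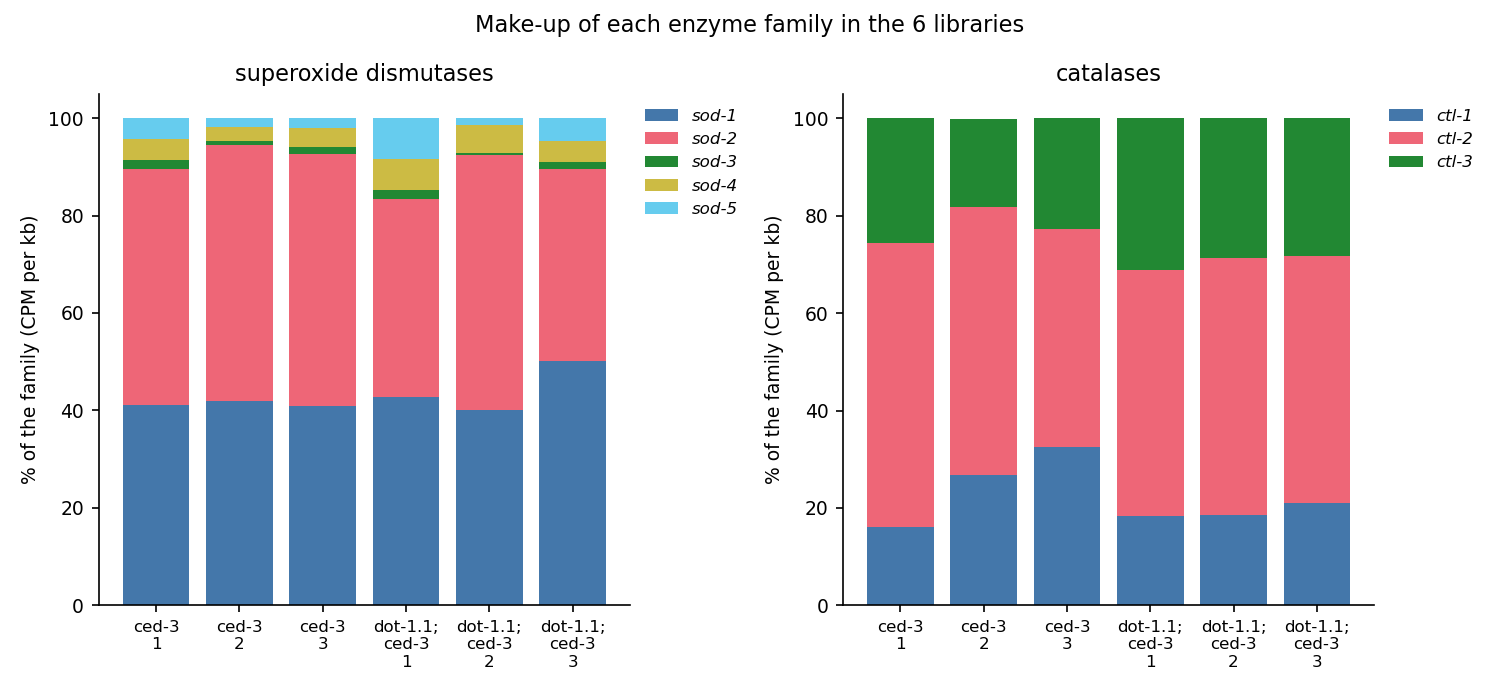
Stacked bars give the share of each gene in its family, in % of the summed CPM per kilobase, for the 6 libraries (the number under each bar is the replicate). Together, sod-1 and sod-2 make up most of the superoxide dismutase level in every library, and ctl-3 takes 28.2% to 31.1% of the catalase level in the double mutants against 18.1% to 25.5% in the single mutants.

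The most abundant of the 10 genes was prdx-2 (chromosome II, 5378195 to 5379631), which encodes a peroxiredoxin, an enzyme that reduces hydrogen peroxide with a reactive cysteine. It had 175, 183 and 140 CPM in the single mutants and 158, 138 and 120 CPM in the double mutants. The double mutant was lower within each replicate number, but the groups overlapped, since single mutant replicate 3 lay among the double mutants. The level went from 166 ± 23.1 to 139 ± 19 CPM (SD, n = 3 each), with a log2 fold change of -0.26 ± 0.149 SE (adjusted p = 0.509, edgeR). With the block the adjusted p was 0.116.

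The gene gst-4 (chromosome IV, 10142225 to 10143099) encodes a glutathione S-transferase. It received 1072, 2633 and 439 counts in single mutant libraries and 3459, 517 and 898 in double mutant ones, which correspond to 15.9, 33.8 and 6.03 CPM and to 54.5, 6.90 and 11.6 CPM. The highest library was thus 9.03-fold above the lowest, and each genotype held both high and low libraries. Within the replicate numbers the log2 ratio of double to single mutant was 1.78, -2.29 and 0.94, so replicate 2 went against the others. The fitted log2 fold change was 0.39 with an SE of 0.993 (adjusted p = 0.892, edgeR), so these data set hardly any limit on its size. It was -1.01 ± 0.645 SE without double mutant replicate 1 and 1.17 without single mutant replicate 2. A stretch of 65 exon bases, 8.9% of its exon length, is common to gst-4 and dhs-12 on the same strand, and dhs-12 was at 9.40 ± 2.16 and 8.80 ± 3.31 CPM in the single and double mutants.

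**Figure D3:**
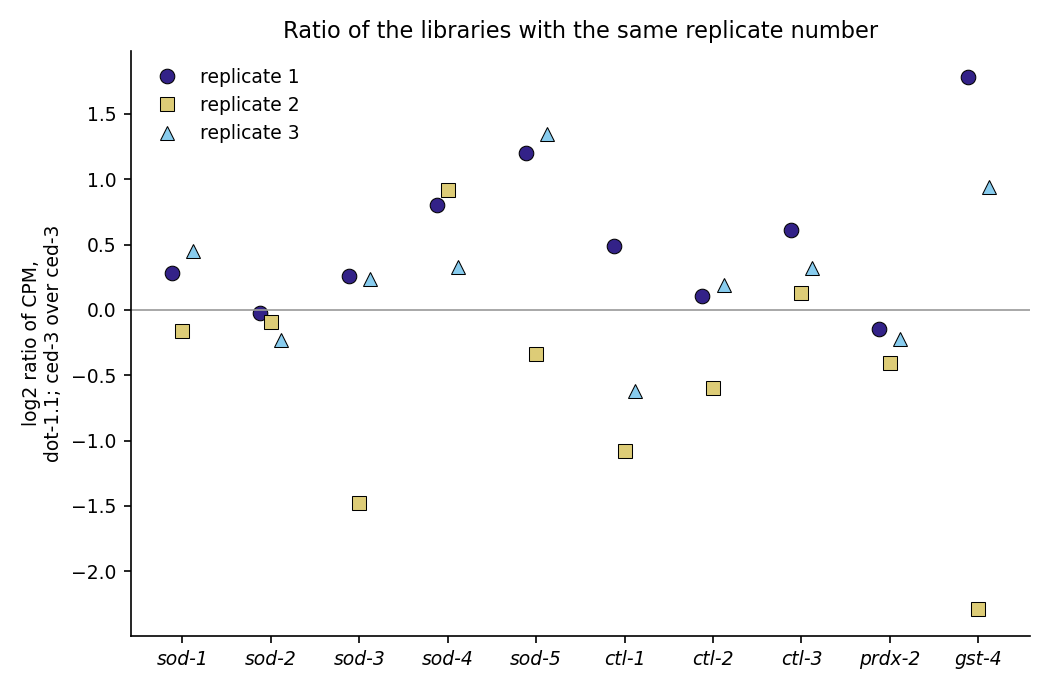
For each gene, the log2 ratio of CPM in the double mutant over the single mutant library with the same replicate number, on a linear axis of log2 units. Values for sod-4 and ctl-3 are above 0 in all 3 replicates and those for sod-2 and prdx-2 below 0, while gst-4 runs from -2.29 in replicate 2 to 1.78 in replicate 1.

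The members differed widely in their spread between replicates. The SD of log2 CPM within the genotypes was 1.40 for gst-4, 1.05 for sod-5 and 1.00 for sod-3, beside a median of 0.23 over the 13022 tested genes with a mean of at least 1 CPM. Of these genes 99.4% varied less than gst-4, 98.9% less than sod-5 and 98.8% less than sod-3. At the other end, sod-1 had an SD of 0.17, and 32.1% of the genes varied less. The SD was 0.20 for prdx-2, 0.24 for sod-2 and 0.34 for sod-4, and it lay between 0.41 and 0.42 for ctl-1, ctl-2 and ctl-3. The ranking uses the same libraries as the comparison and is a description of them.

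**Figure D4:**
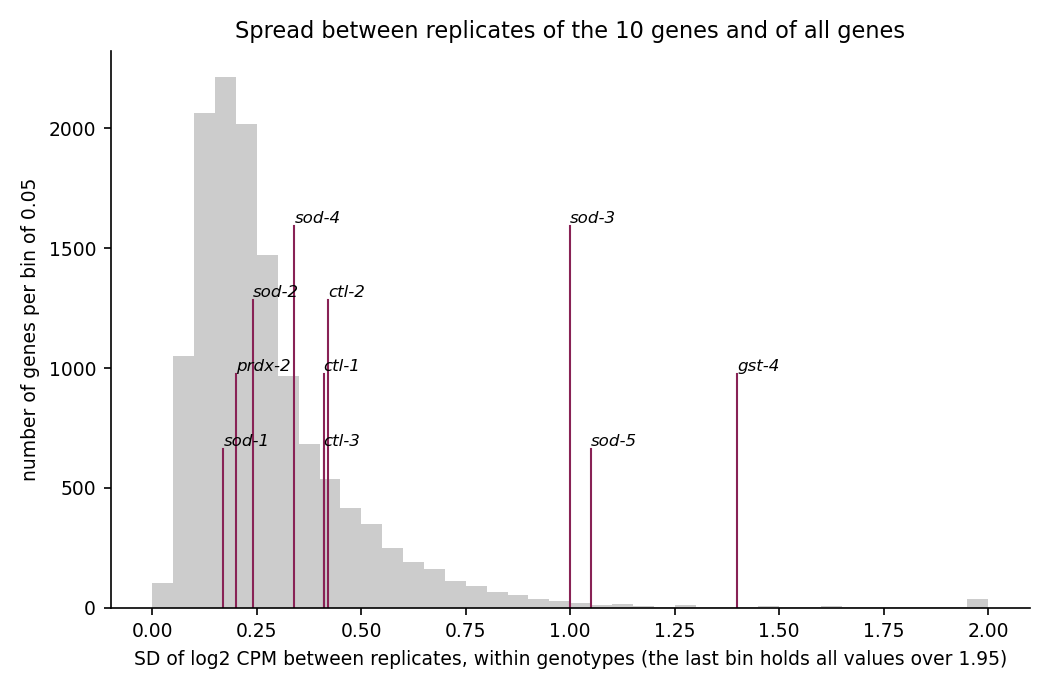
Grey bars count the tested genes with a mean of at least 1 CPM by their SD of log2 CPM between replicates within genotypes (bins of 0.05), and vertical lines mark the 10 genes (their heights carry no value). Most of the 10 lie within the bulk of all genes, while sod-3, sod-5 and gst-4 lie in its upper tail, at 1.00, 1.05 and 1.40.

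Levels of the inducible heat shock genes also differed between libraries. The list of hsp-16 genes and hsp-70, with 7 rows in the table, summed to 2174, 1878 and 412 CPM in single mutant replicates 1, 2 and 3 and to 4256, 551 and 274 CPM in the double mutants. Both hsp-16.1 and hsp-16.48 entered with 2 rows of nearly the same level in every library, so these sums could hold shared reads more than once. The 3 libraries with the highest sums were also the 3 with the most gst-4, with double mutant replicate 1 first in both. Otherwise the order differed. Single mutant replicate 1 had a higher sum than single mutant replicate 2 but less gst-4, and double mutant replicate 3 had the lowest sum but more gst-4 than 2 other libraries. Double mutant replicate 3 also had more sod-3 and sod-5, at 2.36 and 5.71 CPM, than single mutant replicate 2, at 1.57 and 2.54 CPM. None of the 7 rows was called in either edgeR fit. The part of these differences in the levels of gst-4, sod-3 and sod-5 was not tested.

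The calls of the blocked fit depended on every replicate number: its 697 calls over all genes became 11 without replicate 1, 2476 without replicate 2 and 181 without replicate 3. When both libraries of replicate 2 were left out, 5 of the 10 genes were called higher in the double mutants and none lower, in a fit that called 14.2% of all genes. The log2 fold changes of these were 1.37 ± 0.18 SE for gst-4 (adjusted p = 2.76e-05, edgeR), 1.27 ± 0.211 for sod-5 (1.74e-05), 0.57 ± 0.178 for sod-4 (0.0253), 0.46 ± 0.131 for ctl-3 (0.0122) and 0.37 ± 0.115 for sod-1 (0.0237). None of the 10 was called without replicate 1 or without replicate 3, where gst-4 was at -0.70 ± 1.28 and -0.21 ± 2.25 SE. Such a fit rests on 2 libraries per genotype besides the block, so its SE and p-values lean on the spread estimated over all genes. They do not measure the spread of a single gene: for gst-4 the log2 ratios within replicates 1 and 3 were 1.78 and 0.94. The full data do not give these calls.

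**Figure D5:**
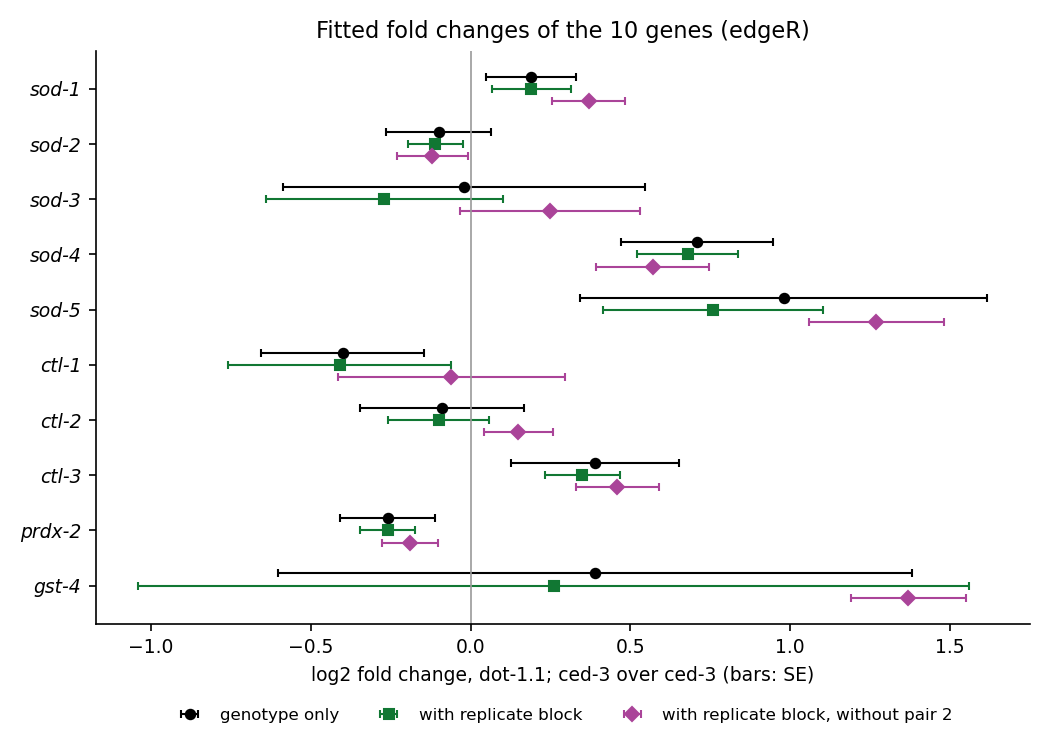
Fitted log2 fold change of each gene, double over single mutant, with bars of 1 SE, for the fit with genotype only (circles), with the replicate block (squares) and with the block but without both libraries of replicate 2 (diamonds). The estimate for gst-4 moves from 0.39 and 0.26 to 1.37 without replicate 2, and its SE from 0.993 and 1.30 to 0.18. Fits with the block but without replicate 1 or without replicate 3 are not drawn. They put gst-4 at -0.70 ± 1.28 SE and -0.21 ± 2.25 SE, and called none of the genes shown.

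Over the 6 libraries the members did not vary as a unit. Among the 45 pairs of members, Pearson's r of log2 CPM ran from -0.54, between sod-2 and sod-3, to 0.92, between sod-5 and ctl-3, with a median of 0.41. Only that pair and ctl-2 with gst-4 (0.91) were above 0.8, and 8 pairs were below 0. Among 8479 other genes with a mean of at least 10 CPM, those with the pattern most like gst-4 were dhs-9 (r = 0.99), C49A9.9 (r = 0.986) and cyp-37B1 (r = 0.984), chosen as the highest of all these coefficients over the same 6 libraries and given as a description. Their ranges were far narrower than that of gst-4: dhs-9 had 40.1, 43.7 and 31 CPM in the single and 50.7, 31.9 and 35.1 CPM in the double mutants, so that it was highest in double mutant replicate 1 and lowest in single mutant replicate 3, as gst-4 was. By family, DHS-9 is a predicted short-chain dehydrogenase and CYP-37B1 a cytochrome P450, and a common role of the 3 genes with gst-4 was not tested.

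The other glutathione S-transferases were followed as 48 genes of the gst, gstk and gsto families, of which 42 had enough reads to be tested. In edgeR none was called without the block, and with it only the omega-class gene gsto-3 was called, at 7.15 ± 0.827 against 12.7 ± 2.40 CPM (SD, n = 3 each; 0.82 ± 0.152 SE on the log2 scale, adjusted p = 0.0339, edgeR). Its levels were 8.07, 6.93 and 6.45 CPM in the single and 14.9, 10.1 and 13.2 CPM in the double mutants, without overlap. The call was lost when replicate 1 or replicate 3 was left out of the blocked fit. DESeq2 without the block called gsto-3 (adjusted p = 0.00969), gst-38 (0.0171) and gst-5 (0.0254), all higher, where gst-38, named after its values were seen, was at 1.5 CPM in the single and 4.81 CPM in the double mutants. The gene with the next lowest p in edgeR, gst-5, was at 19.5, 25.3 and 17.2 CPM and at 47.9, 26.8 and 37.7 CPM (adjusted p = 0.236 without and 0.134 with the block, edgeR). The median log2 fold change of the 42 genes was 0.20, with 31 above 0, where 47.9% of all tested genes lay above 0. The groups did not overlap for 8 of the 42, all higher, beside 18.5% of all tested genes in either direction. Of all tested genes, edgeR with the block called 4.01% and DESeq2 without the block 2.81%. By level per kilobase, gst-4 ranked 7 among the 49 genes of the families, after gst-7, gst-1, gst-20, gst-10, gst-5 and gst-13, and its spread between replicates was the largest of the 43 that were tested, where the median of the other 42 was 0.39. Pearson's r with gst-4 over the 6 libraries had a median of 0.48 among these 42 genes and one of 0.03 among all tested genes. It was over 0.8 for 7 of them, or 16.7%, beside 2.80% of all tested genes. For 9 of the 42 it was below 0, with the lowest at -0.82 for gst-42. Highest were gst-16 (0.96) and gst-19 (0.95), named after their values were seen; gst-19 had 12.7, 17.3 and 4.78 CPM in the single and 21.2, 6.93 and 11.9 CPM in the double mutants. The gst genes are close relatives of each other, so part of their reads could be shared.

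Other genes of peroxide and thiol metabolism gave 0 calls in edgeR, with or without the block, and DESeq2 without the block called gpx-6 lower (adjusted p = 0.0291). Among 8 glutathione peroxidase genes, which reduce peroxides with glutathione, 3 lay above 0 and the median log2 fold change was -0.23. The lowest p belonged to gpx-6, at 9.63 ± 3.00 CPM against 5.31 ± 0.168 CPM (adjusted p = 0.252, and 0.0535 with the block, edgeR), followed by gpx-7 (-0.85 ± 0.341 SE, adjusted p = 0.377). Of the 3 genes of glutathione synthesis and reduction, gcs-1, the rate-limiting synthetase subunit and a known SKN-1 target, had 0.48 ± 0.254 SE (adjusted p = 0.475, edgeR), and the glutathione reductase gene gsr-1 had 0.35 ± 0.273 SE. Of 15 peroxiredoxin, thioredoxin and glutaredoxin genes 14 were tested, with 4 above 0 and a median of -0.07. There trx-3 (0.59 ± 0.218 SE) and trx-4 (-0.47 ± 0.242 SE) had the lowest p, with adjusted p of 0.352 and 0.47. Of the 11 peroxins, which build the peroxisomes where CTL-2 works, none lay above 0, and the median was -0.13. Of all tested genes, 47.9% lay above 0. For 5 of the 11 the groups did not overlap, all lower, beside 18.5% of all tested genes in either direction. Their sum ran from 270 to 298 CPM in the single and from 237 to 253 CPM in the double mutants. The lowest p among them were those of prx-2 (-0.63 ± 0.213 SE, adjusted p = 0.317) and prx-10 (-0.40 ± 0.136 SE, adjusted p = 0.318, edgeR).

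Regulators of the response were tested as 11 genes, with 0 calls in either edgeR fit and a median log2 fold change of 0.09. The transcript of skn-1 itself was at 0.09 ± 0.13 SE (adjusted p = 0.795), that of daf-16 at 0.14 ± 0.151 SE (adjusted p = 0.724), and that of the SKN-1 repressor gene wdr-23 at 0.22 ± 0.13 SE (adjusted p = 0.515, edgeR). The lowest p of this list belonged to the kinase gene gsk-3, with 152 ± 13 CPM in the single and 183 ± 2.06 CPM in the double mutants (adjusted p = 0.389). Among 5 genes of the dual oxidases, which generate hydrogen peroxide, duox-2 was called with the block, at 0.501 ± 0.174 against 1.34 ± 0.329 CPM (SD, n = 3 each; 1.45 ± 0.316 SE on the log2 scale, adjusted p = 0.0466, edgeR), a call that was lost when replicate 1 or replicate 3 was left out. Without the block edgeR did not call it (adjusted p = 0.229), and DESeq2 did (adjusted p = 0.0333). Its partner gene doxa-1 was at 0.45 ± 0.18 SE (adjusted p = 0.376), and the main dual oxidase gene bli-3 at -0.07 ± 0.134 SE. Of 8 metal and stress reporter genes, the small heat shock protein gene sip-1 (-0.82 ± 0.373 SE, adjusted p = 0.435) and the ferritin gene ftn-2 (0.26 ± 0.123 SE, adjusted p = 0.436) had the lowest p. Over all 8 lists, 102 of 109 genes were tested, while gst-8, gst-17, gst-32, gst-34, gst-37, gst-41 and trx-5 had too few reads. Without the block edgeR called 0 (16 at an unadjusted p under 0.05), and DESeq2 called 5, in a fit that called 2.81% of all tested genes. With the block edgeR called 2, a share of 1.96%, below the 4.01% of all genes. The groups did not overlap for 21 of the 102 genes, or 20.6%, close to the 18.5% of all tested genes. Lower without overlap were 5 of 11 peroxins, 3 of 8 glutathione peroxidases and 1 of 14 tested peroxiredoxin, thioredoxin and glutaredoxin genes. Those higher were 8 of 42 glutathione S-transferases, 2 of 5 dual oxidase genes, 1 of the same 14 genes and 1 of 11 regulators. For the glutathione S-transferases this share is near the 18.5% of all tested genes, and the other lists are short. No list was tested as a set.

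Summed levels of intestine, pharynx and neuron markers did not overlap between the genotypes, but not all genes of these lists went the same way. Summed intestine markers (9 of 10 found in the table) ran from 767 to 793 CPM in the single and from 916 to 1090 CPM in the double mutants, pharynx markers (6 of 6) from 384 to 496 and from 641 to 1162 CPM, and neuron markers (6 of 6) from 450 to 525 and from 619 to 688 CPM. Body muscle markers (5 of 5) ran from 1676 to 2440 and from 2183 to 4202 CPM, and epidermis markers (6 of 6) from 439 to 634 and from 367 to 509 CPM, both with overlap. Adult tissue markers (7 of 7) were low, at 1.34 to 2.27 CPM in the single and 3.66 to 4.16 CPM in the double mutants, with the adult collagen gene col-19 at 0 in all single mutants. With the block, act-5 and asp-1 of the intestine list, myo-3 and unc-15 of the muscle list, tnt-4, myo-1 and myo-2 of the pharynx list and unc-31, unc-33 and egl-3 of the neuron list were called higher, all named after their values were seen. The blocked fit called 4.01% of all tested genes. By log2 fold change, 5 of 9 intestine, 4 of 6 pharynx, 5 of 6 neuron, 4 of 5 muscle and 0 of 5 tested epidermis markers lay above 0. Of all tested genes, 47.9% lay above 0. Of the intestine list ges-1, elt-2 and cpr-6 lay below 0, as did elt-7, at 8.49 CPM in the single and 6.42 CPM in the double mutants, without overlap. The pharynx genes ceh-22 and pha-4, the muscle gene hlh-1 and the neuron gene unc-119 also lay below 0. No marker was called by edgeR without the block. DESeq2 without the block, which called 2.81% of all tested genes, called col-19, vit-3, act-5, asp-1, unc-31, egl-3, tnt-4 and myo-1 higher. Of these, col-19 had only 0.157, 0.187 and 0.155 CPM in the double mutants. It passed the read filter through them alone, so its call rests on few reads. The part of these marker differences in the levels of sod-4, ctl-3 and the other members was not tested.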

How the data were processed

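The deposited values are raw read counts per gene, made by the authors, all whole numbers and given for 6 libraries. Per the submitters' processing notes, HISAT2 2.0.5 and StringTie were used with the genome build WBcel235. No source used here gives the counting program, its strand setting or the treatment of shared reads. Columns were assigned through the samples' descriptions. Rows were linked by sequence name or symbol to Ensembl release 115, also WBcel235, for exon lengths and positions (46180 rows with 1 gene, 476 with none, 3 with several).

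All genes were tested together in edgeR 4.0.16 under R 4.3.3. Genes with few counts were removed (filterByExpr), libraries were scaled by TMM, and genotype was the only term of the robust quasi-likelihood fit, with two-sided p-values adjusted by Benjamini and Hochberg over all tested genes and a threshold of 0.05. The SE given for an edgeR fold change is its absolute log2 value divided by the square root of the test's F statistic. The script was run on simulated counts with the same dispersion for every gene and no effect of the replicate number. That run therefore does not cover the spread between these libraries. DESeq2 1.42.0, other scalings, no filter, a replicate block and each library left out were the alternatives. Deviations from the genotype mean correlated at 0.199, 0.169 and 0.32 between libraries of the same replicate number, all above the limit of 0.1. Numbers were therefore treated as pairs in the fits with the block, but not in the main fit with genotype alone. The labels do not say what a number marks. Replicates differed beyond sampling noise (chi-square per degree of freedom 98 to 190). The labels call them biological, and if they shared cultures, the p-values measure only the spread between these libraries.

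Members, pathway lists and marker lists were chosen with earlier results of these data known. Genes of the lists are named where an edgeR fit called them, and as the genes with the 2 lowest p of each list, besides skn-1, daf-16 and bli-3, which were added for their roles after their values were seen. Sequences are not shown here.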

Additional observations from a re-analysis of the deposited data

How the results depend on the processing

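The count of all called genes, 14, became 28 with upper quartile factors, 4 without a filter, 488 in DESeq2, 697 with the replicate block, 11, 2476 and 181 with the block and without pair 1, pair 2 or pair 3, and 2002 in DESeq2 with the block, and ran from 1 to 43 with single libraries left out. The count of called members, 0, became 5 with the block without pair 2 and 1 in DESeq2 with the block, and stayed at 0 in the other 13 alternatives. The 0 calls in the pathway lists became 5 in DESeq2, 2 with the block, 27 with the block without pair 2 (0 without pair 1 or pair 3) and 13 in DESeq2 with the block. The cause of these shifts was not tested. Directions reversed for 4 members, none of them called in its main fit. For sod-3 the log2 fold change became 0.07 with upper quartile factors, 0.25 with the block without pair 2, and -0.56 to 0.47 with single libraries left out. For gst-4 it became -0.70 and -0.21 with the block without pair 1 or pair 3, and -1.01 to 1.17 with single libraries left out. For ctl-2 it became 0.15 with the block without pair 2 and -0.38 to 0.08 with single libraries left out, and for sod-2 -0.20 to 0.04. The other 6 members kept their direction in all 15 alternatives.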
